A study of Mus musculus with 10 samples.

Results

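The chemokines that draw effector T cells into tissue, and the receptors that read them, were followed as 7 genes of a mouse bladder tumour data set. They are the ligand genes Cxcl9, Cxcl10 and Cxcl11 with their receptor gene Cxcr3, the ligand gene Ccl5, and the ligand gene Cxcl16 with its receptor gene Cxcr6. They were chosen by gene symbol, and all 7 were found among the 23086 genes of the deposited table. RNA was sequenced from 5 ATM-KO and 5 ATM-WT tumours of BBN963 cells, a line from a mouse bladder tumour caused by the nitrosamine BBN. Mice were killed when the tumour measured 500 mm3, and part of each tumour was frozen. The ATM kinase responds to broken DNA, and the only comparison in the design is ATM-KO against ATM-WT. The labels do not give the lesion made in Atm, the number of knockout clones, the strain or age of the mice, or whether each tumour came from its own animal. The p-values therefore measure the spread between these samples, which may be technical in part.

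CXCL9, CXCL10 and CXCL11 are small secreted proteins that cells make when interferons reach them, and all bind CXCR3, which is carried by activated T cells and natural killer (NK) cells. CCL5 is secreted by T cells, NK cells and macrophages and acts through CC chemokine receptors that include CCR1 and CCR3. CXCL16 is made as a membrane protein by macrophages and dendritic cells, is shed by the proteases ADAM10 and ADAM17, and binds CXCR6 on effector and tissue-resident T cells.

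Values are normalized counts as the authors deposited them, with totals of 20.2 to 22.3 M (mega) per library. Libraries A11 to A15 are ATM-KO and A1 to A5 ATM-WT. From the spacing of low values, 1 read was worth about 2.46 normalized counts in ATM-WT library A2 and 0.761 to 1.02 in the others, so low genes carry the largest counting error in A2. The number of genes at 0 was 2225 to 2641 in most libraries. It was 3602 in ATM-KO library A12, and 4824 in A2 and 4266 in A4, both ATM-WT. A12 held the lowest ATM-KO value of Cxcl10, Ccl5 and Cxcl16. A4 was not shallow by the spacing of its low values, with 1 read worth about 0.828. A2 and A4 had the highest summed level of epithelial marker genes (224962 and 174391). Between them they held the lowest ATM-WT value of each of the 7 genes. Values without both are given for each of the 7 genes and for some of the other results. Leaving both out lowered the log2 fold change of all 7, so these values are not a check of quality alone. Atm itself averaged 455 ± 139 in ATM-KO and 485 ± 183 in ATM-WT (SD, n = 5 each; limma adjusted p = 0.85), which does not check the genotype labels, because a small lesion need not lower the transcript. The tissue label reads urothelial tumour. The summed level of 7 epithelial marker genes was 2124 to 3752 in ATM-KO and 75146 to 224962 in ATM-WT, and all 7 were lower in ATM-KO. The epithelial keratin Krt8 averaged 15.2 ± 10.8 in ATM-KO, against 10857 ± 4561 in ATM-WT.

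Of the 7 chemokine and receptor genes, Cxcl10 was called higher in ATM-KO tumours, none was called lower, and 6 did not pass the test. The Cxcl10 call was kept in 9 of 20 alternative fits, and in 2 of the 10 that left out 1 library. Ccl5, with a log2 fold change of 0.80 against 0.78 for Cxcl10, did not pass. Of all 16517 genes tested with limma, 22.1% were called higher, 24.3% lower and 46.4% in either direction at an adjusted p under 0.05, so 1 of 7 is no more than the background of this comparison. For none of the 7 did the values of the genotypes separate completely, whereas they did for 35.2% of all genes tested. The log2 fold change was positive for 5 genes and negative for 2, with a median of 0.40, beside a median of 0.0047 over all genes tested. In bulk tumour RNA, more cells of a type and more RNA per cell cannot be told apart.

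**Figure D1:**
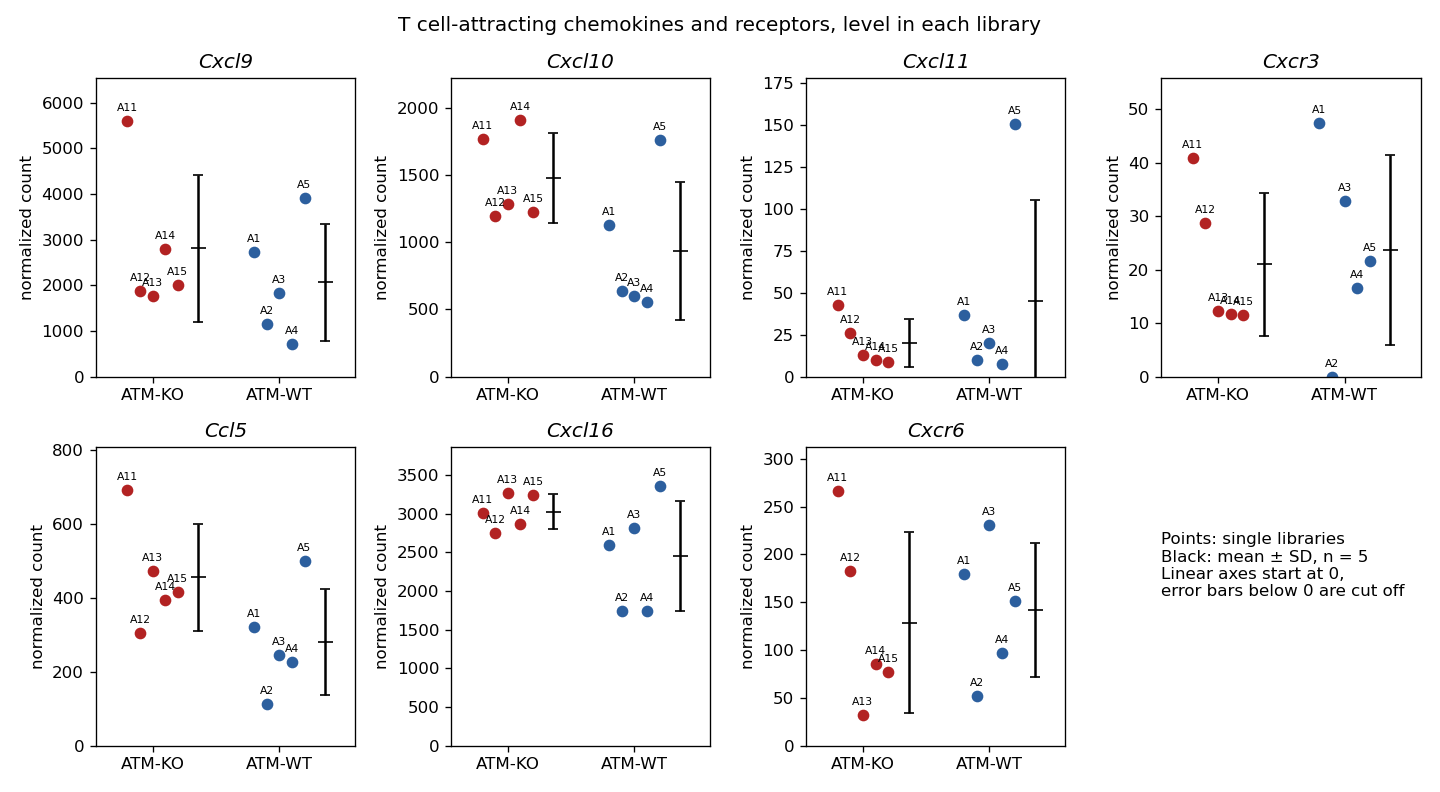
Normalized count (linear axes) of each of the 7 genes in every library, ATM-KO in red and ATM-WT in blue, with the mean ± SD of 5 libraries in black. The genotypes overlap for all 7 genes, and ATM-KO library A11 and ATM-WT library A5 are often the highest of their group.

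Cxcl10 encodes a CXCR3 ligand induced by both types of interferon. Its level was 1767, 1194, 1289, 1909 and 1227 in ATM-KO libraries A11 to A15, and 1129, 639, 601, 555 and 1759.6 in ATM-WT libraries A1 to A5. All ATM-KO libraries lay above A1 to A4, while A5 lay among them. The means were 1477 ± 335 in ATM-KO and 937 ± 515 in ATM-WT (SD, n = 5 each). The log2 fold change, on the log2(value + 1) scale, was 0.78 ± 0.29 (SE), a fold of 1.72 with a 95% interval from 1.11 to 2.67 (limma adjusted p = 0.044). The exact two-sided permutation test over all 252 splits of 5 against 5 gave p = 0.056, not adjusted for the number of genes. The call was kept without A1 or without A5, and was lost when any one of the other 8 libraries was left out. Without A12, A13 or A15 the log2 fold change was nonetheless larger, at 0.85, 0.82 and 0.84 (limma adjusted p = 0.051, 0.060 and 0.055). Without A2, A3, A4, A11 or A14 it was smaller, at 0.63 to 0.71. Without A2 and A4 the log2 fold change was 0.45 (limma adjusted p = 0.23). Cxcl10 lies inside the opposite-strand gene Art3 in GENCODE M21. Art3 was lower, at 39.5 ± 25.8 in ATM-KO and 109 ± 27.9 in ATM-WT (limma adjusted p = 0.0074), and whether the counting used strand is not given in the sources used here.

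Cxcl9 encodes the CXCR3 ligand that depends most on interferon gamma. It stood at 5588, 1870.1, 1775, 2799 and 2010.4 in ATM-KO libraries A11 to A15, and at 2727, 1152, 1822, 709 and 3906 in ATM-WT libraries A1 to A5. A11 stood well above every other library, and the 4 other ATM-KO libraries lay within the ATM-WT range. The means were 2808 ± 1606 in ATM-KO and 2063 ± 1280.4 in ATM-WT, with a log2 fold change of 0.54 ± 0.43 and an interval from -0.40 to 1.49 (limma adjusted p = 0.33). Without A2 and A4 the log2 fold change was -0.085.

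Cxcl11 encodes the CXCR3 ligand that binds the receptor most tightly, but its transcript need not give a protein in every mouse strain. RefSeq lists it as a transcribed pseudogene and GENCODE as a polymorphic pseudogene in the C57BL/6J genome. Its level was 42.9, 25.9, 13, 9.83 and 8.88 in ATM-KO libraries A11 to A15, and 36.9, 9.82, 19.9, 7.46 and 151 in ATM-WT libraries A1 to A5. A5 stood alone at the top, A4 was the lowest of all, and the 3 other ATM-WT libraries lay inside the ATM-KO range. The log2 fold change was -0.53 ± 0.76, with an interval from -2.17 to 1.11 (limma adjusted p = 0.59), and it was 0.11 without A5 and -1.47 without A2 and A4. Cxcl11 also overlaps Art3 on the opposite strand.

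The starts of Cxcl10 and Cxcl9 are shown because these genes flank the start of Art3 in gene order on chromosome 5 and their levels varied together from tumour to tumour. The windows hold 250 bases before and 50 bases after the RefSeq start on GRCm38.p6. Capitals mark matches, on either strand, to an interferon-stimulated response element (ISRE: GAAA, any 2 bases, then GAAA), to an interferon gamma-activated site (GAS, TTCNNNGAA) or to the kappaB consensus of NF-kB.
Cxcl10, chr5:92348840-92349139, minus strand: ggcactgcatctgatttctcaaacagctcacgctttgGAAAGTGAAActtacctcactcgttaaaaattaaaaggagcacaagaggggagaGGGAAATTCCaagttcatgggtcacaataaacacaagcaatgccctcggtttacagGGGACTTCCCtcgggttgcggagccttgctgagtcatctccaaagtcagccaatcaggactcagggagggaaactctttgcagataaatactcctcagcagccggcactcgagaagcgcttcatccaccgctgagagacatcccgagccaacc
Cxcl9, chr5:92328030-92328329, minus strand: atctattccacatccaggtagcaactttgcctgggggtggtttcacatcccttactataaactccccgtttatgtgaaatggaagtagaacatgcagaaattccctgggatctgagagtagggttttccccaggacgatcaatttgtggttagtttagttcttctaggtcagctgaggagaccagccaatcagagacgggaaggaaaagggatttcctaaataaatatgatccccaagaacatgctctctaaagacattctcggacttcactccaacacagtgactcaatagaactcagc
The Cxcl10 window held 1 ISRE match, GAAAGTGAAA, beginning 213 bases before the start, and 2 kappaB matches, GGGAAATTCC and GGGACTTCCC, beginning 159 and 103 bases before it. No match of these letters was found in the Cxcl9 window, or in those of Cxcr3 and Cxcr6. Of 32544 RefSeq windows of the same length, 3.45% held the ISRE, 8.33% the GAS letters and 4.53% the kappaB consensus. Windows were matched for 4 of the 7 genes, and Cxcl11, Ccl5 and Cxcl16 had no entry.

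Cxcr3, the receptor of these ligands, was low, with a lower mean over the 10 libraries in only 10.2% of the genes tested. It was listed at 40.9, 28.7, 12.2, 11.6 and 11.6 in ATM-KO libraries A11 to A15, and at 47.4, 0, 32.8, 16.6 and 21.6 in ATM-WT libraries A1 to A5. The 0 belongs to A2, the shallowest library, and the 4 other ATM-WT libraries all lay above the 3 lowest ATM-KO libraries. The means were 21.0 ± 13.3 in ATM-KO and 23.7 ± 17.8 in ATM-WT, with a log2 fold change of 0.40 ± 0.92 and an interval from -1.60 to 2.40 (limma adjusted p = 0.75). That sign rests on A2, since the log2 fold change was -0.57 without it (limma adjusted p = 0.38) and -0.80 without A2 and A4.

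Ccl5 did not pass the test, although every ATM-KO library lay above the ATM-WT median. Its level was 690.4, 304, 471, 393 and 414 in ATM-KO libraries A11 to A15, and 320.2, 112, 246, 226 and 498 in ATM-WT libraries A1 to A5. A1 and A5 lay inside the ATM-KO range and A2, A3 and A4 below it. The means were 454 ± 145 in ATM-KO and 280.4 ± 143 in ATM-WT, a log2 fold change of 0.80 ± 0.34 (limma adjusted p = 0.071). Its interval, which is not adjusted for the number of genes, ran from 0.062 to 1.54. Without A5 the log2 fold change was 1.05 and passed (limma adjusted p = 0.017), and without A2 it was 0.51 (limma adjusted p = 0.14). Without A2 and A4 it was 0.36 (limma adjusted p = 0.30). The receptor gene Ccr1 did not pass either, at 980.3 ± 136 in ATM-KO and 874 ± 229 in ATM-WT (limma adjusted p = 0.39). Ccr3 was too low to test, at no more than 1.78 in any ATM-KO and 5.90 in any ATM-WT library.

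Cxcl16 was even across the ATM-KO tumours. Its level was 3013, 2747, 3265, 2866 and 3238 in ATM-KO libraries A11 to A15, and 2601, 1738, 2817, 1747 and 3366 in ATM-WT libraries A1 to A5. The ATM-WT libraries spread on both sides of the ATM-KO values, with A2 and A4 lowest and A5 highest. The means were 3026 ± 227 in ATM-KO and 2454 ± 707 in ATM-WT, and the log2 fold change was 0.35 ± 0.17, with an interval from -0.025 to 0.72 (limma adjusted p = 0.12). Without A5 it was 0.47 and passed (limma adjusted p = 0.027), and without A2 and A4 it was 0.053. The opposite-strand gene Zmynd15 overlaps Cxcl16 and was higher, at 1082 ± 170.1 in ATM-KO and 634 ± 256 in ATM-WT (limma adjusted p = 0.015), so reads counted without strand could be shared. The shedding protease genes Adam10 (5304 ± 463 in ATM-KO, 4785 ± 530.2 in ATM-WT) and Adam17 (1591 ± 121 in ATM-KO, 1534 ± 102 in ATM-WT) did not pass (limma adjusted p = 0.25 and 0.65).

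Cxcr6, the receptor of CXCL16, had the highest coefficient of variation of the 7 genes within ATM-KO, at 73.8%. It stood at 267, 183, 32.0, 84.9 and 76.5 in ATM-KO libraries A11 to A15, an 8.34-fold range, and at 179, 51.6, 231, 96.9 and 151 in ATM-WT libraries A1 to A5, a 4.47-fold range. Both the highest and the lowest of all 10 values were ATM-KO. The means were 129 ± 94.9 in ATM-KO and 142 ± 69.9 in ATM-WT, a log2 fold change of -0.32 ± 0.55 with an interval from -1.51 to 0.87 (limma adjusted p = 0.66). Without A13 it was 0.086, and without A2 and A4 it was -0.87. The opposite-strand gene Fyco1, which overlaps Cxcr6, averaged 392 ± 33.8 in ATM-KO and 502 ± 78.4 in ATM-WT (limma adjusted p = 0.053).

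**Figure D2:**
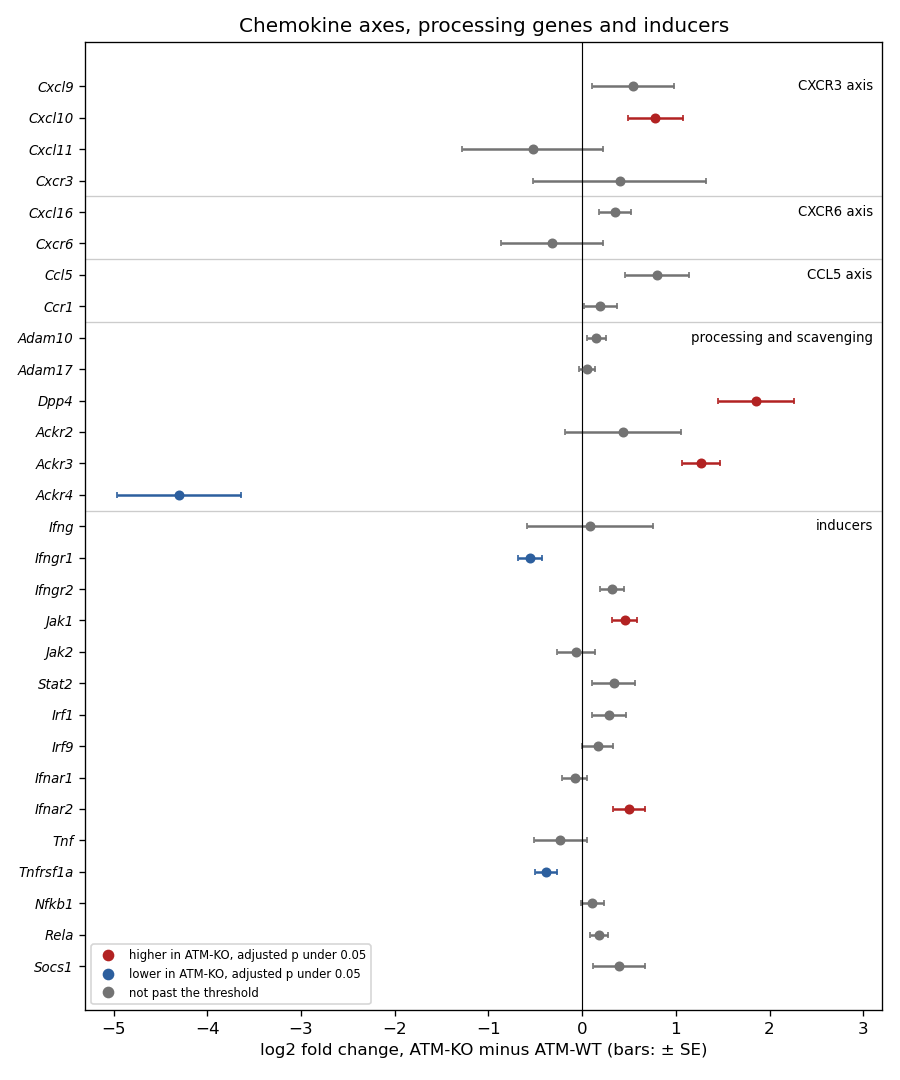
Log2 fold change (ATM-KO minus ATM-WT, linear axis) with its SE for genes of the 3 chemokine axes, of ligand processing and scavenging, and of ligand induction. Cxcl10 is the only one of the 7 genes past the threshold, while Dpp4 and Ackr3 are higher and Ackr4 lower.

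The 7 genes varied together between ATM-WT tumours, and less uniformly between ATM-KO tumours. After the mean of each genotype was subtracted, all 21 pairs were positively correlated over the 10 libraries, with Pearson's r from 0.27 (Cxcl10 with Cxcr6) to 0.85 (Cxcl9 with Cxcl11). These r are descriptions. The pairs share each library's scaling and cell content, and the 10 points hold the residuals of 2 groups. Cxcl9 with Cxcl10 had r = 0.84, and the receptor genes Cxcr3 and Cxcr6 had r = 0.75. Within the 5 ATM-WT libraries no pair was negative (r from 0.33 to 0.95). Within the 5 ATM-KO libraries 5 pairs were negative, and all 5 held Cxcl16, the lowest being Cxcl16 with Cxcr6 at -0.64. A11 was the highest ATM-KO library for 5 of the 7 genes, the exceptions being Cxcl10 and Cxcl16. A5 was the highest ATM-WT library for 5, the exceptions being Cxcr3 and Cxcr6. A2 was the lowest ATM-WT library for 4 genes and A4 for the other 3. The coefficient of variation was smaller in ATM-KO for 6 of the 7 genes, all but Cxcr6, and was smaller in ATM-KO for 78.3% of all genes tested. It was 7.5% in ATM-KO and 28.8% in ATM-WT for Cxcl16.

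**Figure D3:**
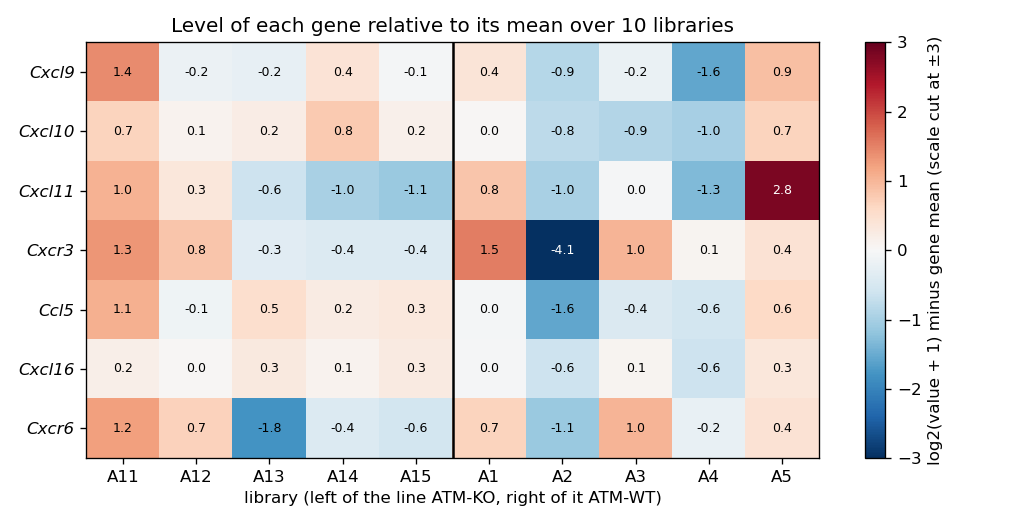
Log2(value + 1) of each gene minus its mean over the 10 libraries (color scale cut at 3 either side), ATM-KO libraries left of the line and ATM-WT right of it. A11 is above the mean for all 7 genes, and A2 is below the mean for all 7, most of all for Cxcr3.

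By the fixed rule of likeness, the 3 genes with the highest r over these 10 residuals were taken from 12680 genes with a mean of at least 50. For Cxcl9 they were Gbp4 (r = 0.99), Tgtp2 (0.97) and Gbp5 (0.97), and for Cxcl10 they were the gene listed as Gvin.ps7 (0.97), Lgals3bp (0.97) and Gvin2 (0.96). For Cxcl11 they were Etv3 (0.94), Ptk2b (0.93) and AW112010 (0.93), and for Cxcr3 they were Gpr65 (0.99), Tlr9 (0.97) and Rab8b (0.97). The log2(value + 1) of Cxcr3 was 0 in A2 and 4.1 to 5.6 in the other ATM-WT libraries. Library A2, the shallowest, therefore weighs most in the r of Cxcr3. Ccl5 was closest to Trmt10b (0.94), the perforin gene Prf1 (0.93) and the Fc receptor gene Fcgr4 (0.92). Cxcl16 was closest to Cd300lb (0.98), Aldh3a2 (0.97) and Galk1 (0.96). Cxcr6 was closest to Tgds (0.94), Cpa4 (0.94) and the T cell kinase gene Lck (0.94). With 10 points and this many candidates high values of r arise readily, and no test was made.

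Markers of the cells that carry or make these molecules moved as follows, where 22.1% of all genes tested were called higher and 24.3% lower. Of 18 T cell markers tested, 1 rose (Cd4, 171 ± 37.8 in ATM-KO and 102 ± 43.6 in ATM-WT, limma adjusted p = 0.047), none fell, and the median log2 fold change was 0.52. That 1 call was lost without A2, A4, A11, A12 or A15 singly and without A2 and A4 together, and 2 T cell markers were called without A5. Their summed level was 1231 to 3518 in ATM-KO and 635 to 2056 in ATM-WT, lowest in A2 and highest in A11, the libraries with the lowest Ccl5 and the highest Cxcr6 of their groups. None of the 18 was at 0 throughout a group. Of 9 NK markers tested, 2 rose, the granzyme genes Gzma (713 ± 354 in ATM-KO, 139 ± 91.7 in ATM-WT, limma adjusted p = 8.8e-04) and Gzmb (311 ± 159.5 in ATM-KO, 100.3 ± 75.4 in ATM-WT, limma adjusted p = 0.0058), and none fell. Without A5 the count of NK markers that rose was 4. Both are also made by cytotoxic T cells, and the NK receptor gene Ncr1 was too low to test, at 7.20 ± 4.22 in ATM-KO and 7.73 ± 5.97 in ATM-WT. Of 10 dendritic cell markers 6 rose and none fell, with a summed level of 4424 to 5456 in ATM-KO and 1270 to 2311 in ATM-WT. The largest part of that sum was Itgax, which averaged 2657 ± 367 in ATM-KO and 857 ± 154 in ATM-WT. Among the 10 markers Clec9a and Batf3, genes of the dendritic cells that present antigen to CD8 T cells, averaged 62.1 ± 18.1 and 193 ± 49.8 in ATM-KO, and 14.5 ± 9.41 and 49.2 ± 27.3 in ATM-WT (limma adjusted p = 0.015 and 0.0011). Of 9 macrophage markers 1 rose and none fell, with a summed level of 23915 to 31935 in ATM-KO and 10020 to 33974 in ATM-WT, lowest in A2 and A4. No macrophage marker was called higher without A2, A4, A5, A11, A13, A14 or A15 singly or without A2 and A4 together, while 4 were without A3. Without A2, and without A2 and A4, 1 macrophage marker was called lower. The part of these cell types in the Cxcl10 difference was not tested.

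**Figure D4:**
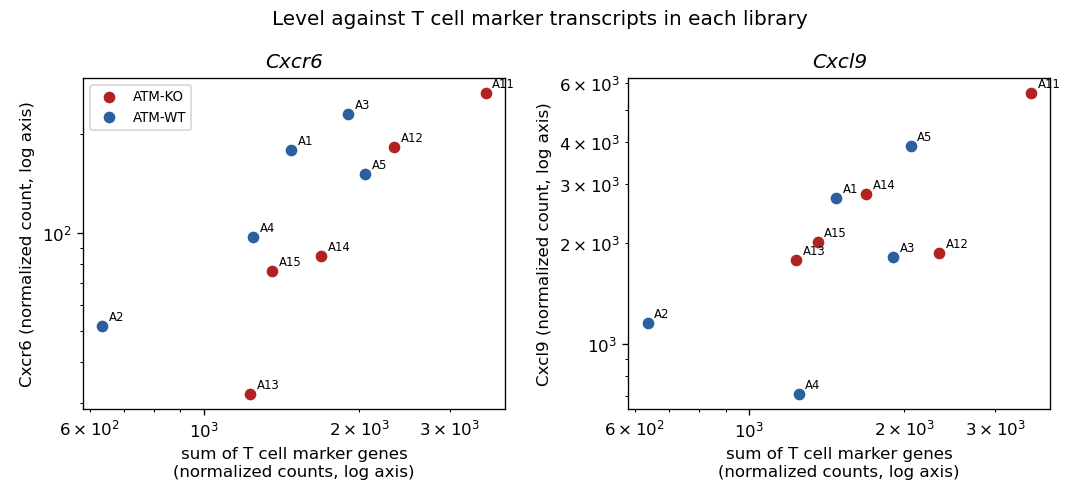
Cxcr6 and Cxcl9 (normalized counts, log axes) against the summed level of the 18 T cell markers in each library, ATM-KO in red and ATM-WT in blue. A2 has the lowest and A11 the highest T cell sum, and the 5 ATM-KO libraries reach from 32.0 to 267 for Cxcr6.

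Receptor transcript was also set against T cell transcript within each library, a ratio (with 1 added to each value) that depends little on the scaling of the library. The log2 ratio of Cxcr6 to Cd3e, which encodes a chain of the T cell receptor complex, was 0.44, 0.45, -1.37, 0.07 and 0.69 in ATM-KO libraries A11 to A15, and 1.23, 1.86, 2.15, 1.92 and 0.60 in ATM-WT libraries A1 to A5. All but A15 of the ATM-KO libraries lay below the lowest ATM-WT value, which was that of A5. The difference was -1.50 (exact two-sided permutation p = 0.016, adjusted over 8 ratios p = 0.13). It did not pass the correction, and it was -0.74 with Cd3g and -0.79 with the sum of the T cell markers in place of Cd3e (adjusted exact permutation p = 0.19 for both), alternatives chosen after seeing the data. Cxcr3 to Cd3e differed by -0.78 and Ccl5 to Cd3e by -0.38 (adjusted exact permutation p = 0.44 and 0.51). The difference for Cxcr3 was -0.023 with Cd3g and -0.069 with the T cell sum in place of Cd3e, and -1.35 without A2 with Cd3e. For Ccl5 the sign turned with Cd3g (0.38) or the T cell sum (0.33).

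Ratios between the ligands did not pass either. The log2 ratio of Cxcl11 to Cxcl10 was -6.35 ± 0.93 in ATM-KO and -5.04 ± 1.00 in ATM-WT (SD, n = 5 each), a difference of -1.31 (exact permutation p = 0.071, adjusted p = 0.19) that did not pass. Cxcl9 to Cxcl11 differed by 1.07 with the same exact permutation p. Cxcl9 to Cxcl10 differed by -0.24, Cxcr6 to Cxcr3 by -0.72, and Cxcl16 to the macrophage receptor gene Csf1r by 0.0089 (adjusted exact permutation p = 0.51, 0.51 and 0.98).

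**Figure D5:**
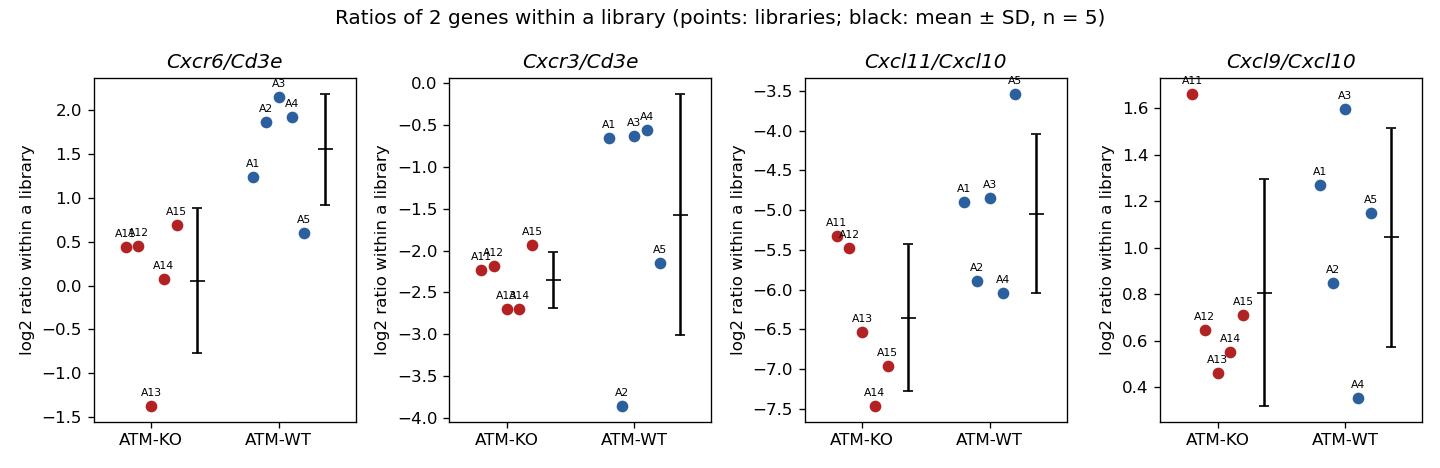
Log2 ratio of 2 genes within each library (linear axes), ATM-KO in red and ATM-WT in blue, with the mean ± SD of 5 libraries in black. For Cxcr6 to Cd3e, 4 of the 5 ATM-KO libraries lie below every ATM-WT library.

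Of 6 tested genes that trim, shed or scavenge chemokines outside the cell, 2 rose and 1 fell, with a median log2 fold change of 0.29. Over all genes tested, 46.4% were called in either direction. Dpp4, a surface peptidase that clips CXCL9, CXCL10, CXCL11 and CCL5, rose to 120.4 ± 23.0 in ATM-KO, against 36.6 ± 19.3 in ATM-WT (log2 fold change 1.86 ± 0.41, limma adjusted p = 0.0023). Ackr3, a scavenging receptor of CXCL11 and CXCL12, rose to 1340.5 ± 257 in ATM-KO, against 566 ± 147 in ATM-WT (1.27 ± 0.20, limma adjusted p = 2.5e-04). Ackr4, a scavenging receptor of CCL19, CCL21 and CCL25, fell to 2.62 ± 2.24 in ATM-KO, against 73.7 ± 56.1 in ATM-WT (limma adjusted p = 1.9e-04). The genotypes did not overlap for any of the 3, as was so for 35.2% of all genes tested. Ackr2, a scavenger of inflammatory CC chemokines, did not pass (89.6 ± 50.3 in ATM-KO, 67.2 ± 36 in ATM-WT, limma adjusted p = 0.59), and Ackr1 was too low to test.

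Of 16 tested genes of the pathways that induce these ligands, 2 rose, 2 fell and 12 did not pass, with a median log2 fold change of 0.17. The 16 include an inhibitor gene of these pathways, Socs1, which did not pass (limma adjusted p = 0.27). The share called in either direction over all genes tested was 46.4%. Ifng, the gene of interferon gamma, was low in both genotypes, at 16.7 ± 12.3 in ATM-KO and 16.8 ± 9.74 in ATM-WT (limma adjusted p = 0.93). Ifngr1, its ligand-binding receptor chain, fell to 1145 ± 134 in ATM-KO, against 1692 ± 283 in ATM-WT (-0.55 ± 0.13, limma adjusted p = 0.0035). Tnfrsf1a, a receptor of tumour necrosis factor, fell to 2142 ± 130.0 in ATM-KO, against 2826 ± 489.6 in ATM-WT (limma adjusted p = 0.017). Jak1, a kinase of the interferon receptors, rose to 3507 ± 232 in ATM-KO, against 2602 ± 554 in ATM-WT (0.45 ± 0.14, limma adjusted p = 0.015). Ifnar2, a chain of the type I interferon receptor, rose to 1357 ± 89.9 in ATM-KO, against 988 ± 277 in ATM-WT (limma adjusted p = 0.030). Jak1 did not pass under quantile normalization (0.35, limma adjusted p = 0.064). Without A2 and A4 neither Jak1 (0.26, limma adjusted p = 0.056) nor Ifnar2 (0.21, limma adjusted p = 0.12) passed, and the Ifnar2 call was also lost without A2, A4, A12, A14 or A15 singly. Irf1, an interferon-induced transcription factor gene, did not pass at 3492 ± 772 in ATM-KO and 2896 ± 759.6 in ATM-WT (limma adjusted p = 0.22).

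Of 20 other lymphocyte chemokine and receptor genes tested, 3 rose and 4 fell, beside 46.4% of all genes tested called in either direction. Ccl17 and Ccl22, the ligand genes of CCR4, rose together. Ccl17 averaged 362 ± 172 in ATM-KO and 48.1 ± 30.1 in ATM-WT (2.88 ± 0.46, limma adjusted p = 2.7e-04), and Ccl22 averaged 259 ± 69.0 in ATM-KO and 69.5 ± 28.2 in ATM-WT (1.94 ± 0.32, limma adjusted p = 2.9e-04). Xcr1, the receptor gene of cross-presenting dendritic cells, rose to 31.9 ± 14.2 in ATM-KO, against 5.68 ± 6.05 in ATM-WT (2.96 ± 0.81, limma adjusted p = 0.0091). Without A2 and A4 the log2 fold change of Xcr1 was 1.65 (limma adjusted p = 0.015). Of the genes that fell, Cxcl13, the B cell attractant of lymphoid follicles, averaged 4.64 ± 5.28 in ATM-KO and 272 ± 198 in ATM-WT (limma adjusted p = 9.1e-05). Ccl28, an epithelial chemokine, averaged 3.78 ± 5.58 in ATM-KO and 53.2 ± 18 in ATM-WT (limma adjusted p = 4.4e-04). Ccl27a, a chemokine of skin epithelium, averaged 57.3 ± 19.3 in ATM-KO and 98.2 ± 25.3 in ATM-WT (limma adjusted p = 0.042), and its call was lost when any one library but A1, A5 or A14 was left out. Cxcl12, a stromal chemokine that retains lymphocytes through CXCR4, was the fourth, at 687 ± 240.0 in ATM-KO and 3964 ± 2047 in ATM-WT (limma adjusted p = 1.5e-04). The fall of Ccl28 and Cxcl12 went with lower epithelial and fibroblast markers in ATM-KO (7 of 7 lower in each list), and the part of those cells was not tested. The summed level of the 7 fibroblast markers was 35105 to 105383 in ATM-KO and 157002 to 573359 in ATM-WT.

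Cxcr6 marks resident and activated T cells, and 11 genes of that state, Cxcr6 included, were tested, of which 3 rose and none fell. The share called higher over all genes tested was 22.1%. Lag3, an inhibitory receptor gene, averaged 459 ± 206 in ATM-KO and 124 ± 39.8 in ATM-WT (1.82 ± 0.30, limma adjusted p = 3.3e-04). Its genotypes did not overlap, as was so for 35.2% of all genes tested. Pdcd1, which encodes PD-1, averaged 104 ± 65.5 in ATM-KO and 32.4 ± 35.4 in ATM-WT (limma adjusted p = 0.045). Itgae, the residency integrin CD103 that dendritic cells also make, averaged 197 ± 52.1 in ATM-KO and 122 ± 47.2 in ATM-WT (limma adjusted p = 0.0496). The calls of both were lost without A2, A4, A11, A12, A13, A14 or A15 singly, and that of Itgae also without A5. Without A13, A14 or A15 the log2 fold change was larger than with all libraries for both genes. It was then 0.79, 0.81 and 0.75 for Itgae (0.73 with all) and 2.83, 2.79 and 2.87 for Pdcd1. Without A11 or A12 it was smaller, at 0.59 and 0.70 for Itgae and 2.40 and 2.63 for Pdcd1. The log2 fold change of Pdcd1 was 1.74 without A2, 3.37 without A5 and 0.94 without A2 and A4, against 2.70 with all libraries.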

How the data were processed

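Bulk RNA was sequenced from 5 ATM-KO and 5 ATM-WT tumours. For 23086 gene symbols the authors deposited 1 table of normalized counts, here treated as a signal. STAR, Salmon and DESeq2 are named in the submitters' processing notes. Not given in the sources used here are their versions and roles, the genome build, the annotation and the use of strand. Column names give the genotype and a library number that no label carries, so columns were assigned to groups only. For 1214 genes a symbol changed in export was restored.

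Low values (up to 20 reads) were whole multiples of 1 read's worth, within 0.05, in 58.9% to 69.0% of cases. Reads were therefore not recovered, no count model was run, and exact depth is unknown. Testing required a mean of at least 10 and was done on log2(value + 1), a scale that understates changes of low genes, by limma 3.58.1 under R 4.3.3 (moderated by eBayes, trend on, Benjamini-Hochberg adjustment over all genes, threshold 0.05). The procedure was run on simulated data with the same spread rule in both groups and few changed genes. That setting differs from these data, so it does not check the calls made here. Ratios were tested by exact permutation. Alternatives covered pseudocounts, filters, rescaling, moderation, sample weights and left-out libraries. Promoter windows are RefSeq's on GRCm38.p6. Genes named are the 7 members, genes of fixed lists, and the 3 genes most like each member. Some genes of the lists are not reported here. The members and lists were chosen with earlier results of these data known. Python 3.11.15 with numpy 2.4.6, pandas 2.3.3 and matplotlib 3.10.9 was used for tables and figures.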

Additional observations from a re-analysis of the deposited data

Results flagged for a closer look

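Single libraries stood far from the other 4 of their group in 6 measures. Chance alone gives this in about 1 in 20 groups if values are normally distributed and groups independent. In all, 30 groups were examined, with genes taken as normalized counts and ratios as log2 values. These groups share genes and libraries, and linear counts are often skewed, so no excess over chance can be read from the 6. Cxcl9 was 5588 in ATM-KO library A11, with the next ATM-KO library at 2799, and the log2 ratio of Cxcl9 to Cxcl10 in A11 was 1.66, with the next at 0.71. Cxcl11 was 151 in ATM-WT library A5, with the next ATM-WT library at 36.9, and the log2 ratio of Cxcl9 to Cxcl11 in A5 was 4.69, with the next at 6.17. The log2 ratio of Cxcr6 to Cxcr3 was 1.32 in ATM-KO library A13, with the next at 2.62, and 5.72 in ATM-WT library A2, with the next at 2.78. The A2 ratio rests on a Cxcr3 value of 0.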

How the results depend on the processing

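No paired analysis was possible because the columns carry no sample number of the labels. Over the 10 fits that each left out 1 library, the count of the 7 genes called higher ran from 0 to 3 and that of genes called lower stayed at 0. The log2 fold change ran from 0.63 to 1.05 for Cxcl10, from 0.51 to 1.05 for Ccl5, from 0.24 to 0.47 for Cxcl16, from 0.22 to 0.84 for Cxcl9, from -0.93 to 0.11 for Cxcl11, from -0.57 to 0.83 for Cxcr3 and from -0.67 to 0.086 for Cxcr6. The difference in log2 ratio of Cxcl16 to Csf1r ran from -0.18 to 0.18. Without A2 and A4, the libraries with the lowest ATM-WT values, 0 of the 7 genes were called. Cxcl10 was then at 0.45, Cxcl9 at -0.085 and Cxcr3 at -0.80. Cxcl10 was not called (0 of 7) with eBayes without trend (0.78, limma adjusted p = 0.078) or with sample weights (0.47, limma adjusted p = 0.20). The exact permutation test, chosen after seeing the data, gave p = 0.056 for Cxcl10 (0.78). That p is not adjusted for the number of genes, unlike the limma values. Over 20 alternatives the limma adjusted p of Cxcl10 ran from 0.0027 to 0.23, and 9 kept the call. Cxcr3 was at -0.0046 with a pseudocount of 10 and at -0.17 with sample weights. Quantile normalization moved the median of all genes to 0.15 and the split of all calls to 4514 higher and 3319 lower, against 3649 and 4017. Under it 2 of the 7 genes were called, Cxcl10 and Ccl5 (1.01), while Cxcl11 at 0.053 and Cxcr6 at 0.14 lay below that shift. It also gave 7 T cell markers, 6 NK markers, 8 other lymphocyte chemokine or receptor genes and 6 resident or activated T cell genes called higher. With a pseudocount of 10 the differences in log2 ratio of Cxcr6 to Cd3e (-1.27), Cxcr3 to Cd3e (-0.99) and Cxcl11 to Cxcl10 (-1.22) passed at an adjusted exact permutation p of 0.042. Cd3g and the T cell sum were put in place of Cd3e with a pseudocount of 1 only, not with 10. At a pseudocount of 1 the difference for Cxcr3 to Cd3e was -0.023 with Cd3g and -0.069 with the T cell sum. That for Ccl5 to Cd3e turned to 0.38 with Cd3g and 0.33 with the T cell sum. Atm turned to 0.073 under quantile normalization and 0.060 without A2 and A4, and ran from -0.21 to 0.12 over single left-out libraries, and Csf1r to -0.18 without A2 and A4. The cause of these changes was not tested. Depth limits Cxcr3 and Cxcl11 most, the lowest of the 7 genes.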
